A study of Mus musculus with 72 samples.

Results

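The matrix metalloproteinases Mmp2, Mmp3, Mmp9, Mmp10, Mmp13, Mmp14 and Mmp19 and their tissue inhibitors Timp1, Timp2 and Timp3 were followed by RNA-seq in mouse melanoma lines given ligands of the gastrin-releasing peptide receptor (GRPR). They were taken by symbol from the count table, where they make up 10 of 50600 genes. The table holds 72 libraries, from 6 lines under 4 treatments with 3 replicates each. The lines 1057 and 1064 are ΔEcad lines from female mice, in which GRPR is endogenous (Tyr::NRASQ61K/°, Cdkn2a-/-, Tyr::CreA/°, Cdh1dF/dF). The other lines came as pairs transfected with CMV::Grpr/tGFP (1181-Grpr, 1014-Grpr) or CMV::tGFP (1181-Ctrl, 1014-Ctrl). The parent of the 1181 pair is a male line labelled Cdh1dF/dF and without the Cre transgene, beside Tyr::NRASQ61K/° and Cdkn2a-/-, and that of the 1014 pair is a female line with Tyr::NRASQ61K/°. All 6 lines thus carry the NRAS transgene under the melanocyte-directed tyrosinase promoter, whereas the transfected Grpr is under the CMV promoter and not its own. After 18 h of starvation the cells received 0.1% DMSO (mock), 10 nM gastrin-releasing peptide (GRP), 1 µM RC-3095 (RC, a GRPR antagonist) or GRP with RC for 4 h in 0.5% FCS. The 1057 and 1064 lines share 1 listed genotype, and each transfected pair comes from 1 parent line. Replicates of a line do not stand for other lines of its genotype, and the labels do not say whether the replicates were separate cultures. The study's methods describe its cell culture work in general as done in biological triplicates, and if these libraries were not, the p-values measure technical spread.

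Matrix metalloproteinases are zinc-dependent enzymes that cut the proteins of the extracellular matrix, and most leave the cell as inactive precursors that have to be cleaved. Mmp3 and Mmp10 are stromelysins, which cut proteoglycans and other matrix proteins and activate other precursors, Mmp13 is a collagenase of fibrillar collagen, and Mmp2 and Mmp9 are gelatinases. Mmp14 sits in the plasma membrane and activates proMmp2 together with Timp2, while Mmp19 is a secreted enzyme with a broad range of substrates. The TIMPs bind the active site of these enzymes and block it, and in melanoma both sides of the balance are studied for their part in invasion.

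The stromelysin and collagenase genes lie near one another on the plus strand of chromosome 9 (GRCm38), with Mmp13 (ENSMUSG00000050578) at 7272514-7283331, Mmp3 (ENSMUSG00000043613) at 7445822-7455975 and Mmp10 (ENSMUSG00000047562) at 7502352-7510240. Their promoters are shown beside that of Timp1 because these 4 genes were the members called higher after GRP on average over the GRPR-expressing lines, as described further on. Each sequence holds the 120 bases before the RefSeq start (GRCm38.p6, plus strand, 5′ to 3′), at chr9:7272394-7272513, chr9:7445702-7445821, chr9:7502222-7502341 and chrX:20870046-20870165 in that order. Capitals mark the AP-1 motif TGAGTCA, the binding sequence of Fos and Jun dimers, searched on both strands (its complement reads TGACTCA).
Mmp13: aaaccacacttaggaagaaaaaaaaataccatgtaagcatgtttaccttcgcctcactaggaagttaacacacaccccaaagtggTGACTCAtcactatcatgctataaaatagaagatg
Mmp3: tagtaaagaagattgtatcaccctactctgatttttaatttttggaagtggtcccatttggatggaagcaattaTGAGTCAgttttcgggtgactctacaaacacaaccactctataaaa
Mmp10: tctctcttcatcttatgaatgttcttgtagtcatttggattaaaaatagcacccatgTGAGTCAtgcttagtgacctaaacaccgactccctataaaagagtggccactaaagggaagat
Timp1: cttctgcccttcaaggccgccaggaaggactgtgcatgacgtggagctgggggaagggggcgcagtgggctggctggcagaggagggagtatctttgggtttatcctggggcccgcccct
The motif began 35 bases before the start in Mmp13, 46 in Mmp3 and 63 in Mmp10, and none was in the 250 bases before the starts of Timp1, Timp2, Timp3 and Mmp14. Of 32851 RefSeq promoter windows, 1466 (4.46%) held this motif. The cAMP-response element TGACGTCA was in none of these 7 windows and in 508 (1.55%) of all. Mmp2, Mmp9 and Mmp19 had no entry in the promoter table. A match of letters is a description and not evidence of binding.

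Libraries held 19512882 to 46862053 counts (median 28112904). Grpr lay in 1057 at 187 to 275 CPM (CPM are counts scaled to the library's total, with TMM factors over the 72 libraries), at 472 to 1283 in 1064, at 107 to 620 in 1014-Grpr and at 8.48 to 79.9 in 11 libraries of 1181-Grpr. It lay at 0.0915 or less in 1181-Ctrl and at 0.0332 or less in 11 libraries of 1014-Ctrl. In each transfected pair 1 library went against its label. The library labelled 1014-Ctrl mock replicate 2 held 48.1 CPM of Grpr and 64.2 of the Y-linked Ddx3y, and the library labelled 1181-Grpr GRP+RC replicate 2 held 0 of both. Comparisons that use these libraries are therefore also given without them where that changed a call. Cdh1, which encodes E-cadherin, was at 0.119 CPM or less in the 1057 and 1064 lines, which carry Cre, and at 9.74 to 26.9 CPM in the 1181 pair, whose Cdh1dF/dF label comes without Cre (11 libraries of 1181-Grpr). In the 1014 pair Cdh1 was lower than in the 1181 pair, at 0.688 to 3.15 CPM in 1014-Grpr and 1.87 to 5.12 in 11 libraries of 1014-Ctrl. Both Xist, a transcript of female cells, at 193 to 248 CPM, and Ddx3y, at 37.1 to 63.2 CPM, were found in these 11 libraries of 1181-Grpr, whereas 1181-Ctrl held 0.640 CPM or less of Xist. The part of this in any value of 1181-Grpr was not tested. The library labelled 1014-Ctrl mock replicate 2 held 172 CPM of Xist and 22.7 of Cdh1, nearer to 1181-Grpr than to the rest of 1014-Ctrl. The library labelled 1181-Grpr GRP+RC replicate 2 held 793 CPM of Xist and 4.60 of Cdh1. Both values lay within the ranges of 11 libraries of 1014-Ctrl (583 to 1050 CPM for Xist). Whether these 2 libraries were exchanged was not tested. All 7 melanocyte markers were above 0 in every library (summed 5424 to 37572 CPM), against summed levels of 0.587 to 23.8 CPM for 6 fibroblast markers and 3.19 to 55.9 for 5 leukocyte markers. Endothelial markers summed to 6.94 CPM or less and epithelial markers to 1.50 or less.

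To ask how receptor activation changed these genes, GRP-treated libraries were set against mock-treated libraries within each line. Mmp10 and Timp1 were higher after GRP in 1057 and 1014-Grpr, Mmp3 and Mmp13 also rose in 1057, and Timp3 also rose in 1014-Grpr. No member passed the test in either control line or in 1181-Grpr, and none passed as lower anywhere. A gene was called where the adjusted p of edgeR's quasi-likelihood test was under 0.05 (Benjamini-Hochberg, over all tested genes of the line) and the log2 fold change lay beyond 1 in size. Of 60 pairs of gene and line, 45 passed the filter on low counts and 7 of these were called, all higher, where 2.12% of all tests over the 6 lines were called. In 1057, 4 of 9 tested members were called higher (4.96% of all tested genes were), in 1014-Grpr 3 of 8 (3.16%) and in 1064 none of 8 (1.52%). In 1181-Grpr and the control lines 0% of genes were called higher. At an unadjusted p under 0.05 there were 7 tested members in 1057 (57.2% of all tested genes), 5 in 1014-Grpr (39.9%), 2 in 1064 (22.2%) and 1 in 1181-Grpr (0.31%), and 0 in 1181-Ctrl (0.261%) and 1014-Ctrl (4.09%). The share in 1064 was therefore near that of all genes in this fit. In the fit with the replicate number as a block, 6 of 8 tested members of 1064 had such a p (51.3% of genes). There were 8 of 8 in 1014-Grpr (58.3%), 7 of 9 in 1057 (57.6%) and 1 of 8 in 1181-Grpr (1.08%). The control lines had 0 (3.62% of genes in 1181-Ctrl and 3.95% in 1014-Ctrl). DESeq2 called 9 pairs in place of 7, the added 2 in 1064, and none in 1181-Grpr or a control line. With the replicate number as a block, 2 members of 1064 were called as well, where 3.48% of tested genes were called higher by that fit. Mmp13 in 1057 and Mmp10 in 1014-Grpr had passed the filter through their 3 GRP libraries alone, and Mmp10 in 1064 through 2 GRP libraries and 1 RC library, so these genes could hardly be tested without being high after GRP. This holds for every test of them against GRP libraries below.

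Some sums of markers of other cell types were higher after GRP in the lines with calls, and others overlapped. In 1057 the 5 leukocyte markers summed to 24.7 to 29.8 CPM in mock and 28.2 to 30.2 after GRP. These ranges overlapped, and Adgre1 was at 0 in all 6 libraries. The 6 fibroblast markers summed to 3.89 to 4.70 CPM and 5.65 to 6.44, with Col3a1, Dcn and Lum at 0 throughout, and the 3 endothelial markers to 4.58 to 5.24 CPM and 6.51 to 6.94, both without overlap. In 1014-Grpr the leukocyte markers summed to 3.48 to 5.24 CPM in mock and 5.99 to 10.2 after GRP, and the fibroblast and endothelial sums overlapped. Cd68, a lysosomal protein of macrophages, was the only one of these markers called, higher in both lines. The part of these markers in the results was not tested.

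**Figure D1:**
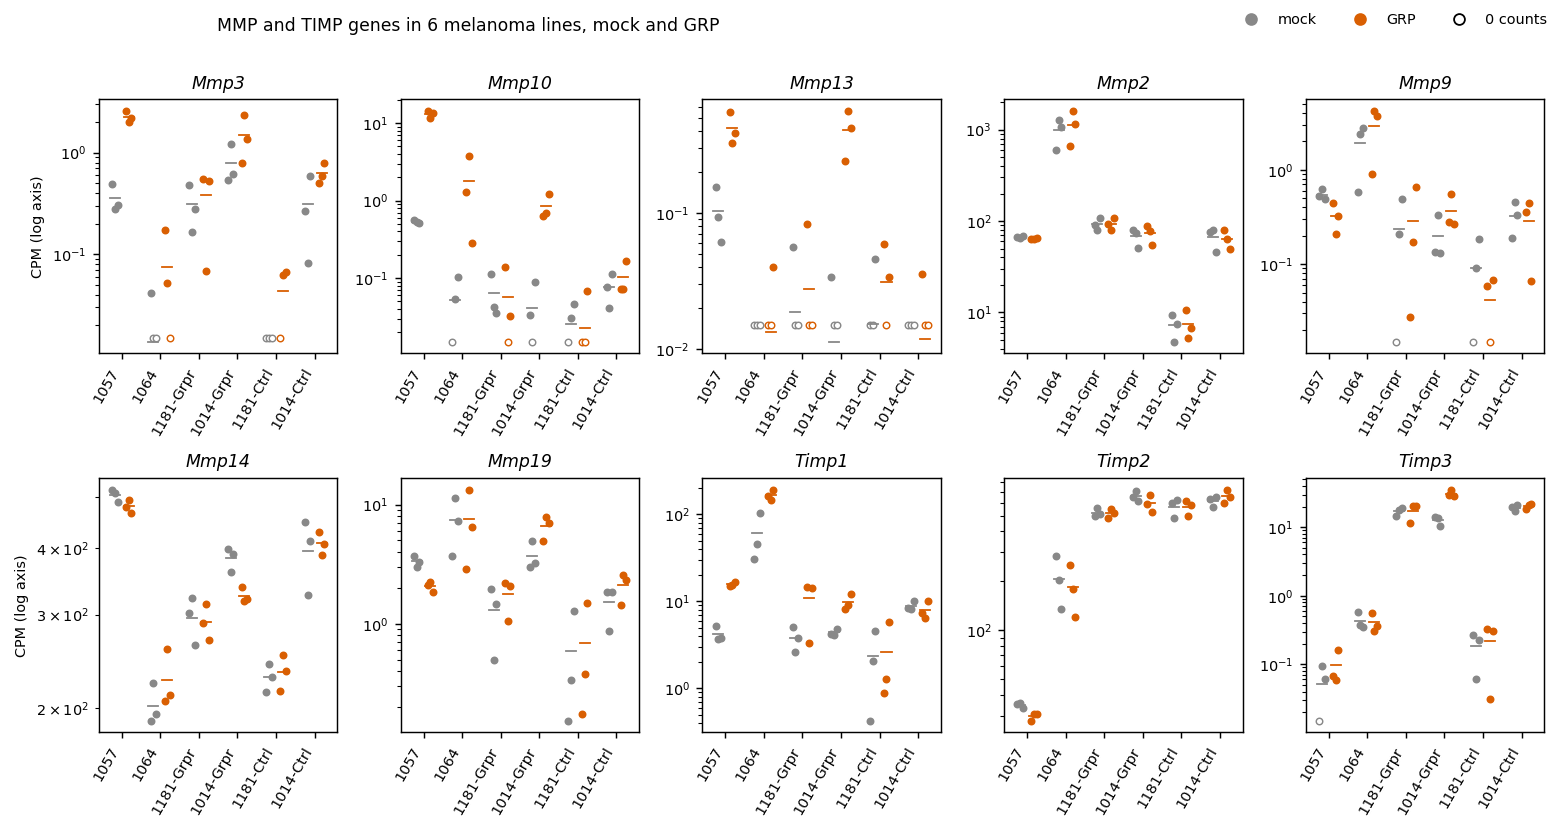
Levels of the 10 genes in each mock (grey) and GRP (orange) library of the 6 lines, in CPM on a log axis; each point is 1 library, the bar is the mean of 3, and open points are libraries with 0 counts. Mmp10 after GRP lies above every mock library of its own line in 1057, 1064 and 1014-Grpr, and Timp1 does so in 1057, 1064 and 1014-Grpr.

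Mmp10 gave the largest called changes. In 1057 it was at 0.553, 0.526 and 0.520 CPM in the mock libraries and at 14.3, 11.7 and 13.6 CPM after GRP. The 2 groups lay far apart, and the difference was 4.64 ± 0.17 on the log2 scale (SE, adjusted p = 1.22e-13, edgeR). As these are bulk libraries, more cells with the transcript and more transcript per cell cannot be told apart, here and for every gene below. In 1014-Grpr the mock libraries held 0.0338, 0 and 0.0882 CPM and the GRP libraries 0.638, 0.689 and 1.22. The groups did not overlap (log2 difference 4.47 ± 0.60, adjusted p = 0.00019, edgeR). Only 3 counts lay behind the pooled mock value against 92 after GRP, a ratio of 26.1 (exact 95% counting interval 8.64 to 129, which covers counting error only).

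In 1064 the same gene went from 0, 0.0534 and 0.104 CPM to 1.29, 3.72 and 0.279 CPM. All 3 GRP libraries were above all 3 mock libraries, but they spread over more than the 1057 ones. The log2 difference of 4.87 ± 1.50 did not pass (adjusted p = 0.0827, edgeR), and with the replicate block it was 4.60 ± 0.80 (adjusted p = 0.00118, edgeR). Pooled counts were 4 in mock and 109 after GRP, a ratio of 28.9 (11.0 to 108). In 1181-Grpr no rise of Mmp10 was detectable, with 6 pooled counts in either group and a ratio of 0.919 (0.246 to 3.44). In 1014-Ctrl the pooled counts were 6 and 9, a ratio of 1.36 (0.432 to 4.64).

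Mmp3 lay low in every line, with a highest value of 2.57 CPM among the 72 libraries and 0 in 15 of them. In 1057 its mock libraries held 0.492, 0.278 and 0.306 CPM and its GRP libraries 2.57, 2.01 and 2.18. The groups did not overlap, and the log2 difference of 2.66 ± 0.23 passed (adjusted p = 1.59e-08, edgeR). In 1014-Grpr it was at 0.541, 1.20 and 0.617 CPM in mock and at 0.797, 2.33 and 1.38 after GRP. These ranges overlapped, although each GRP library exceeded the mock library of its own number. The difference was 0.93 ± 0.63 (adjusted p = 0.302, edgeR), or 0.98 ± 0.27 with the block (adjusted p = 0.00436), just under the required fold. Its control line gave a difference of 0.97 ± 0.51 that did not pass (adjusted p = 0.698, edgeR), with 0.266, 0.0825 and 0.593 CPM in mock and 0.499, 0.585 and 0.796 after GRP. The lowest of these mock values is from the library that went against its label, and the difference without it is not given here. The range of the other mock values overlapped that after GRP. In 1064 and 1181-Ctrl Mmp3 was too low to be tested, with 1 against 5 and 0 against 4 pooled counts.

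Mmp13 was the least abundant member, at 0 in 44 of the 72 libraries and at no more than 0.558 CPM in the others. In 1057 it was at 0.154, 0.0928 and 0.0612 CPM in mock and at 0.548, 0.325 and 0.385 after GRP. The groups did not overlap (log2 difference 2.0 ± 0.54, adjusted p = 0.00474, edgeR). The difference rests on 10 and 39 pooled counts, a ratio of 4.04 (1.98 to 9.07). In 1014-Grpr it fell short of the filter and was not tested, with 0.0338, 0 and 0 CPM in mock and 0.239, 0.558 and 0.422 after GRP. All but 1 of the counts in these 6 libraries came from GRP (1 against 42, ratio 35.7, interval 6.06 to 1443).

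Timp1 gave a log2 difference above 1 in all 4 GRPR-expressing lines. It encodes a secreted inhibitor of most of these enzymes and lies on chromosome X at 20870166-20874735 (ENSMUSG00000001131), within the neuronal gene Syn1 on the other strand but with no shared exon bases. In 1057 its libraries held 5.26, 3.71 and 3.77 CPM in mock and 15.1, 15.4 and 16.5 after GRP. That difference was 1.91 ± 0.12 on the log2 scale (adjusted p = 2.32e-10, edgeR), with no overlap. In 1014-Grpr the values were 4.16, 4.15 and 4.85 CPM in mock and 8.25, 9.19 and 12.3 after GRP. These groups did not overlap either (1.20 ± 0.15, adjusted p = 0.000122, edgeR).

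The 1064 line held by far the most Timp1, at 30.7, 46.0 and 104 CPM in mock and 163, 148 and 191 CPM after GRP. The groups did not overlap, but the mock libraries alone spread over more than a 3-fold range. The difference was 1.48 ± 0.45 (adjusted p = 0.0799, edgeR), it was 1.65 ± 0.20 with the block (adjusted p = 0.000204), and DESeq2 called it too. Without mock replicate 3 it was 2.12 and was called (adjusted p = 0.0141, edgeR). In 1181-Grpr the gene was at 5.02, 2.59 and 3.79 CPM in mock and at 14.7, 3.30 and 14.4 after GRP. The second GRP library stayed within the mock range, and it was also the one with the lowest Grpr level, 19.1 CPM against 79.9 and 39.5 in the others, whose part in the result was not tested. The difference of 1.50 ± 0.48 did not pass in a fit in which no gene of the line was called (adjusted p = 1, edgeR). It was called at 1.48 (adjusted p = 6.18e-05, edgeR) when the block was used and the GRP+RC library that went against its label was left out. This was 1 of 15 alternatives, and the other 14 left the gene uncalled. The share of all genes called by that fit is not given here.

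In the control lines Timp1 did not differ detectably. The 1014-Ctrl libraries held 8.36, 8.13 and 10.1 CPM in mock and 7.28, 6.44 and 10.0 after GRP (log2 difference -0.16 ± 0.27). The 1181-Ctrl libraries varied widely among themselves, with 0.424, 2.05 and 4.53 CPM in mock and 0.881, 1.26 and 5.73 after GRP (0.16 ± 1.03). The groups overlapped in both lines.

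Timp3, an inhibitor that stays bound to the matrix, was called in 1014-Grpr and not in 1064, 1181-Grpr or 1014-Ctrl, the other lines in which it was tested. It lies on the plus strand of chromosome 10 at 86300372-86349506 (ENSMUSG00000020044), and 21.3% of its exon bases overlap Syn3 on the other strand. In 1014-Grpr it was at 13.9, 13.6 and 10.5 CPM in mock and at 29.9, 35.1 and 28.1 after GRP. The groups did not overlap, and the log2 difference of 1.30 ± 0.19 passed (adjusted p = 0.000352, edgeR). In 1014-Ctrl it was at 19.8, 17.0 and 20.9 CPM in mock and at 18.5, 21.3 and 21.9 after GRP, groups that overlapped (0.10 ± 0.11). The 1181-Grpr libraries overlapped as well, at 14.6, 17.8 and 19.2 CPM in mock and 11.5, 20.1 and 20.2 after GRP. In 1057 the gene had only 5 and 9 pooled counts.

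Mmp19, Mmp2, Mmp9, Mmp14 and Timp2 had no call in any line. Mmp19 (chromosome 10, 128790910-128800824, with 28.3% of its exon bases under transcripts of the other strand) passed the p-value threshold with opposite signs in 1057 and 1014-Grpr, below the required fold in both. In 1057 its libraries went from 3.69, 3.0 and 3.31 CPM to 2.12, 2.24 and 1.86 CPM, groups that did not overlap and whose log2 difference was -0.65 ± 0.13 (adjusted p = 0.000241, edgeR). In 1014-Grpr they went from 3.01, 4.93 and 3.26 CPM to 4.94, 7.84 and 7.03 CPM (0.83 ± 0.26, adjusted p = 0.0286, edgeR). There the lowest GRP library was only just above the highest mock library. In 1064 the values differed more between replicates than between treatments (3.67, 11.4 and 7.22 CPM in mock, 2.89, 13.3 and 6.50 after GRP).

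The gelatinase Mmp2 (chromosome 8, 92827291-92853420) barely moved in 1057, where mock libraries held 66.3, 65.9 and 67.9 CPM and GRP libraries 63.6, 63.8 and 65.0 (log2 difference -0.03). In 1064, the line with the most Mmp2, replicates ranged from 603 to 1274 CPM in mock and from 660 to 1598 after GRP. Mmp9 (chromosome 2, 164940780-164955850) was scarce everywhere, at 0.522, 0.619 and 0.490 CPM in the mock libraries of 1057 and 0.445, 0.207 and 0.321 after GRP. Those groups did not overlap, but the difference of -0.74 ± 0.32 did not pass (adjusted p = 0.0648, edgeR). Mmp14 (chromosome 14, 54431612-54445364) was the steadiest member, within 179 to 516 CPM over all 72 libraries. Its log2 differences were -0.05 in 1057 and -0.22 ± 0.06 in 1014-Grpr, the second past the p-value threshold alone (adjusted p = 0.0187, edgeR). Timp2, the partner of Mmp14 (minus strand of chromosome 11, 118301069-118355740), went from 35.3, 35.7 and 33.2 CPM to 27.9, 30.7 and 30.6 CPM in 1057, a difference of -0.20 ± 0.06 that also passed on p alone (adjusted p = 0.0113, edgeR).

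**Figure D2:**
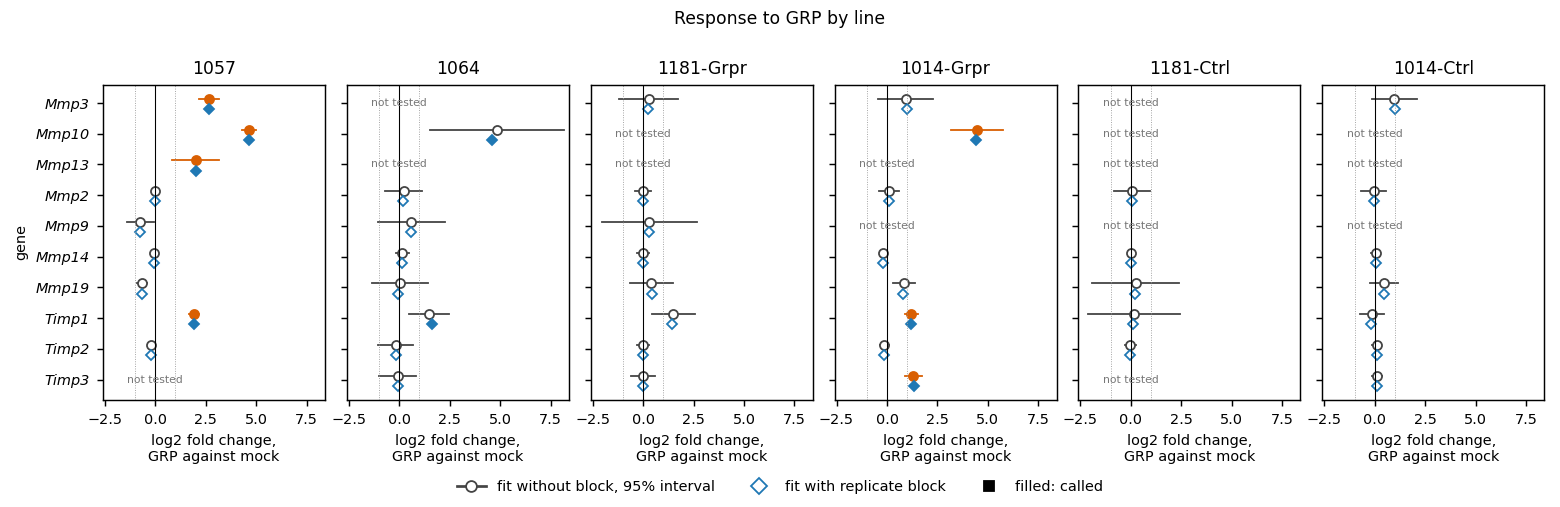
Log2 fold change of each gene after GRP against mock in the 6 lines, with circles and 95% intervals from the fit without a replicate block, diamonds from the fit with it, and filled symbols where the gene was called. Mmp10 stands between 4.47 and 4.87 in 1057, 1064 and 1014-Grpr, Timp1 between 1.20 and 1.91 in the 4 GRPR-expressing lines, and both are near 0 or not tested in the control lines.

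The GRP effect was then averaged over the 4 GRPR-expressing lines in 1 fit of all 72 libraries, in which 1.85% of genes were called higher. Mmp10 (3.45 ± 0.54, adjusted p = 1.43e-06), Timp1 (1.51 ± 0.27, adjusted p = 1.37e-05), Mmp3 (1.48 ± 0.45, adjusted p = 0.0111) and Mmp13 (2.30 ± 0.86, adjusted p = 0.044) were called higher by edgeR. Mmp13 lost its call with the block (adjusted p = 0.0614, edgeR). By the minimum count of the fits by line it was above only in GRP libraries, 3 of 1057 and 2 of 1014-Grpr. It could therefore hardly be tested without being high after GRP. Its pooled counts in mock and GRP were 0 and 1 in 1064 and 2 and 3 in 1181-Grpr, too few to show an effect there. The average over the 2 control lines called no member higher (0.00603% of genes), with 0.01 for Timp1. The difference between the averages, the test of whether the effect was larger in lines with the receptor, called 1.83% of genes and passed for Timp1 (1.50 ± 0.48, adjusted p = 0.0365, edgeR). For Mmp10 it was 3.34 ± 1.38 (adjusted p = 0.129) and passed with the block (3.28 ± 1.10, adjusted p = 0.0195, edgeR). For Mmp3 no such difference is given, because 1181-Ctrl held no mock count of it. Within the 1014 pair, whose test called 3.89% of genes, the effect was larger with Grpr for Timp1 by 1.35 ± 0.32 (adjusted p = 0.00765), for Timp3 by 1.20 ± 0.23 (adjusted p = 0.00163) and for Mmp10 by 4.03 ± 1.08 (adjusted p = 0.0166, edgeR). These 3 calls held without the 2 libraries that went against their labels. Within the 1181 pair 0% of genes were called (58 genes at an unadjusted p under 0.05), and Timp1 gave 1.33 ± 1.18.

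Because the effect differed from line to line, each pair of GRPR-expressing lines was also compared, with pairs of gene and line chosen for mention after their values were seen. Over the 6 pairs of lines, 4 differences passed. The effect in 1057 exceeded that in 1181-Grpr for Mmp3 by 2.36 ± 0.67 (adjusted p = 0.0314, edgeR) and for Mmp10 by 4.74 ± 1.04 (adjusted p = 0.00583), where 2.41% of genes were called. Mmp19 differed by -1.50 ± 0.30 between 1057 and 1014-Grpr (adjusted p = 0.000871, edgeR; 2.83% of genes called). Timp3 differed by -1.28 ± 0.34 between 1181-Grpr and 1014-Grpr (adjusted p = 0.0413, edgeR; 1.24% called). Without the block no member passed between 1064 and 1057, 1181-Grpr or 1014-Grpr, where 0.451%, 0.261% and 0.154% of genes did. With the block 9 differences passed, the same 4 and 5 more, where 1.96% to 3.49% of genes passed in the 5 pairs of lines concerned. The added ones were Mmp3 (1.67, adjusted p = 0.000974) and Mmp9 (-1.54, adjusted p = 0.0430, edgeR) between 1057 and 1014-Grpr (3.49%), Mmp9 between 1057 and 1064 (-1.33, adjusted p = 0.0167; 2.46%), Timp3 between 1064 and 1014-Grpr (-1.34, adjusted p = 0.0237; 1.96%) and Mmp10 between 1181-Grpr and 1014-Grpr (-4.48, adjusted p = 0.00514; 2.47%). The fit that compared 1057 with 1181-Grpr called 3.33%.

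RC was given alone to see what the antagonist did by itself, and with GRP to see how much of the response it removed. Mmp10 in 1057 was the only member called after RC alone, at 1.62, 0.949 and 1.15 CPM against 0.553, 0.526 and 0.520 in mock (1.21 ± 0.27, adjusted p = 0.00276, edgeR). In that comparison 0.888% of tested genes were called. The groups did not overlap, and the rise was a small part of that after GRP. The call was lost without RC replicate 1. Mmp3 in 1057 was at 0.550, 0.551 and 0.592 CPM after RC, each above the mock libraries, with a difference that did not pass (0.64, adjusted p = 0.137, edgeR). In the other 5 lines no member was called by edgeR or DESeq2 and 0% of genes were, although 33 to 694 genes a line had an unadjusted p under 0.05, 1 member in 1014-Ctrl (5.05% of genes) among them. Timp1 after RC was at 43.8, 58.3 and 92.9 CPM in 1064 and at 3.93, 3.65 and 4.35 CPM in 1014-Grpr, groups that overlapped their mock libraries.

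With both ligands the response was smaller than with GRP alone. Over the 6 lines 3 members were called lower, where 0.457% of all tests were called in either direction, and 6 with the block. By line these were 2 of 9 tested in 1057 (0.754% of genes lower) and 1 of 8 in 1014-Grpr (1.59%), and the block added 1 in 1014-Grpr (1.96% by that fit) and 2 in 1064 (1.28%). Mmp10 in 1057 was at 5.43, 5.80 and 4.28 CPM, below all of its GRP libraries and above all of its mock libraries (-1.36 ± 0.12 against GRP, adjusted p = 8.24e-08, edgeR). In 1014-Grpr it was at 0.0907, 0.247 and 0.163 CPM, likewise between the groups (-2.35 ± 0.47, adjusted p = 0.0067, edgeR), with 12 pooled counts against 92 (ratio 0.185, interval 0.0924 to 0.34). In 1064 it was at 0.256, 0.373 and 0 CPM (-3.02 ± 1.23, adjusted p = 0.438), a difference that passed with the block (-3.01 ± 0.61, adjusted p = 0.00809, edgeR). In each of these 3 lines the mean of Mmp10 with both ligands lay below that with GRP alone.

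Mmp13 in 1057 returned to the mock range, at 0.0875, 0.127 and 0.0684 CPM (-2.11 ± 0.56, adjusted p = 0.00929, edgeR), from 9 pooled counts against 39 (ratio 0.229, interval 0.0974 to 0.48). It had passed the filter only through its GRP libraries, so this test starts from a high GRP group. In 1014-Grpr no count of Mmp13 was left with both ligands against 42 with GRP, which puts it at least 9.85-fold lower. Mmp3 in 1057 was at 1.40, 1.27 and 0.958 CPM, apart from the mock and the GRP libraries, with a difference below the required fold (-0.90 ± 0.18, adjusted p = 0.0011, edgeR). In 1014-Grpr it was at 0.317, 1.69 and 0.327 CPM, and the block decided its call (-0.96 ± 0.65, adjusted p = 0.392 without it and -1.05 ± 0.28, adjusted p = 0.00547 with it, edgeR). There replicate 2 stood above the others in every treatment.

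Timp1 with both ligands lay between mock and GRP in 1057, at 8.14, 9.19 and 10.1 CPM (-0.80 ± 0.11 against GRP, adjusted p = 2.2e-05, edgeR), and in 1014-Grpr, at 5.12, 4.90 and 5.52 CPM (-0.96 ± 0.15, adjusted p = 0.00153). Neither reached the required fold. In 1064 its libraries held 47.7, 64.6 and 108 CPM, below all GRP libraries and overlapping the mock libraries, and the difference passed with the block (-1.30 ± 0.20, adjusted p = 0.00301, edgeR) but not without it (-1.20 ± 0.45, adjusted p = 0.383). In 1181-Grpr they held 6.59, 6.54 and 5.25 CPM (-0.81 ± 0.47, adjusted p = 0.855, edgeR), the second from the library that went against its label. Timp3 in 1014-Grpr was at 19.3, 21.3 and 13.1 CPM, again between the groups except for replicate 3, which lay within the mock range (-0.81 ± 0.19, adjusted p = 0.0151, edgeR). Mmp19 in 1057 was back at 3.44, 3.29 and 2.94 CPM with RC added, above all GRP libraries (0.62, adjusted p = 0.00129, edgeR).

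**Figure D3:**
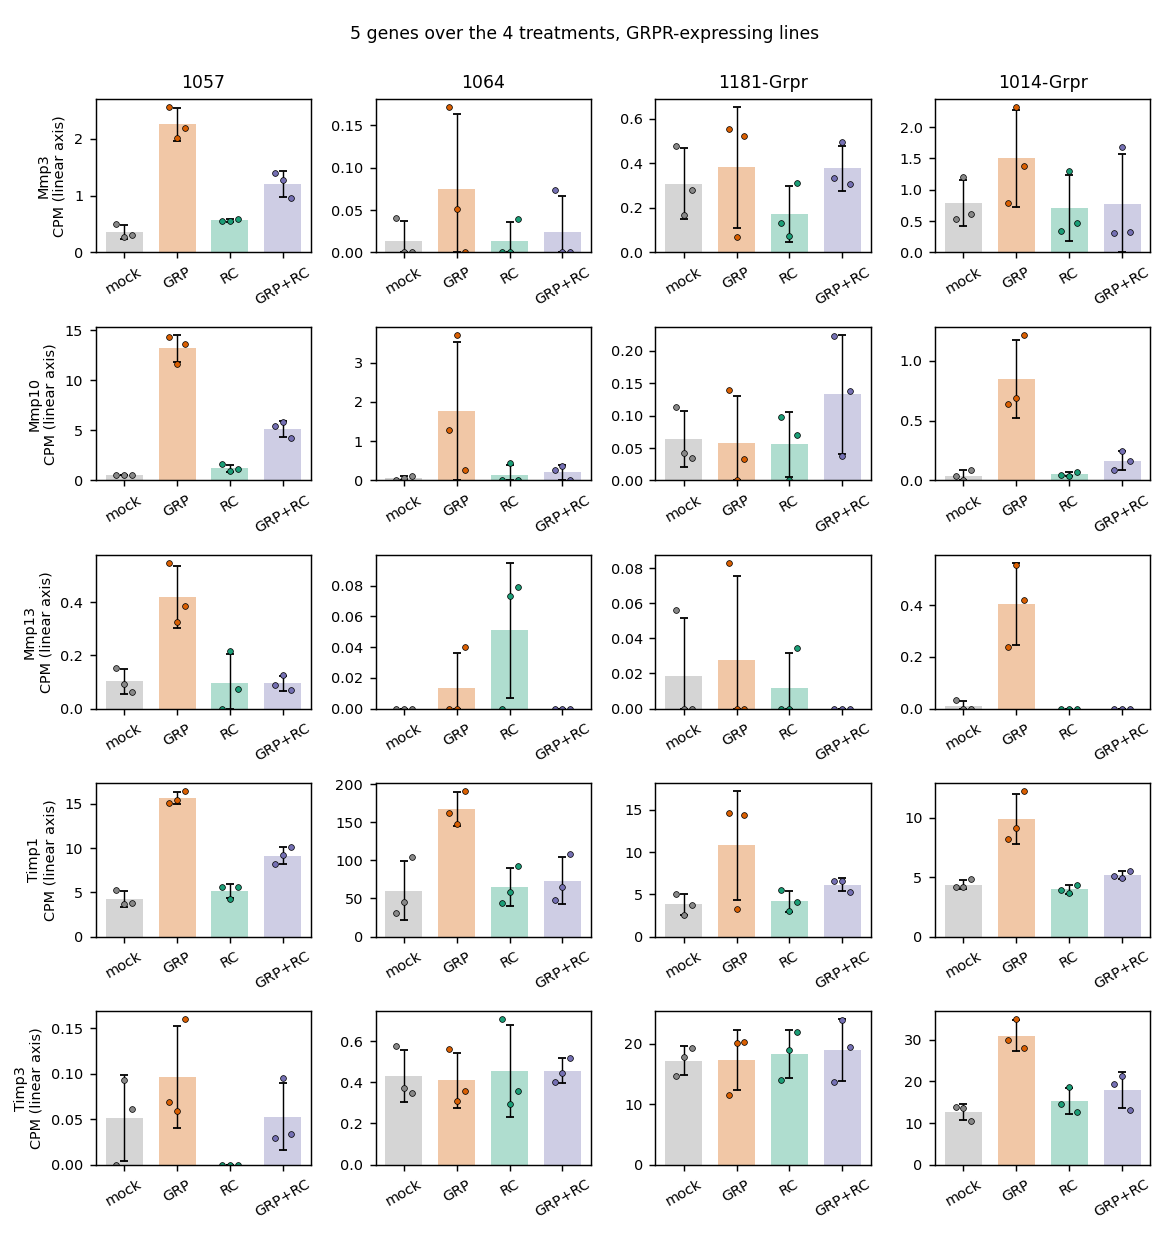
Mmp3, Mmp10, Mmp13, Timp1 and Timp3 under mock, GRP, RC and GRP+RC in the 4 GRPR-expressing lines, in CPM on a linear axis; points are libraries and bars the mean ± SD of 3, cut at 0. In 1057 Mmp10 stood at means of 0.533, 13.2, 1.24 and 5.17 CPM in that order.

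Against mock, the combination still left 3 members higher in 1057, where 3.02% of tested genes were called higher. Mmp10 rose by 3.28 ± 0.20 (adjusted p = 2.61e-10, edgeR), Mmp3 by 1.75 ± 0.25 (adjusted p = 1.86e-05) and Timp1 by 1.11 ± 0.13 (adjusted p = 1.52e-06, edgeR). In 1014-Grpr no member was called by edgeR or DESeq2 (0.153% of genes were called higher). At an unadjusted p under 0.05 there were 3 of 8 tested members and 11.8% of genes, with 2.11 ± 0.81 for Mmp10 (adjusted p = 0.312), 0.49 for Timp3 (adjusted p = 0.331, edgeR) and 0.24 for Timp1. These comparisons share mock or GRP libraries with one another.

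In resting (mock) cells the lines differed in all members but Mmp13, in at least 1 pair of lines. Over the 15 pairs of lines, Timp3 was called in 12, Timp2 and Mmp2 in 9 each, Mmp3 in 8, Timp1 in 6, Mmp9, Mmp10 and Mmp19 in 5 each and Mmp14 in 2, and Mmp13 was not tested. Those are 61 calls, where 22.6% of all tests over the 15 pairs were calls. Mmp2 was highest in 1064 at 979 ± 343 CPM (SD, n = 3) and lowest in 1181-Ctrl at 7.23 ± 2.33. Between them lay 1181-Grpr (92.9 ± 13.1), 1014-Grpr (68.0), 1014-Ctrl (67.2) and 1057 (66.7 ± 1.08), whose neighbours in that order did not pass a test. The steps from 1064 to 1181-Grpr (log2 3.38, adjusted p = 6.20e-07, edgeR) and from 1057 to 1181-Ctrl (3.21, adjusted p = 6.14e-07) did.

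The inhibitors had another order. Timp1 was highest in 1064 (60.3 ± 38.8 CPM), a called step above 1014-Ctrl (8.87 CPM; log2 2.75, adjusted p = 0.000832, edgeR), and no further neighbours differed down to 1181-Ctrl at 2.33 CPM. Timp2 stood at 655, 614, 568 and 522 CPM in 1014-Grpr, 1014-Ctrl, 1181-Ctrl and 1181-Grpr without a called step. It was lower in 1064 (206 CPM, log2 step 1.35, adjusted p = 4.27e-05, edgeR) and lower still in 1057 (34.8 CPM, log2 step 2.57, adjusted p = 1.63e-07). Timp3 stood at 19.2, 17.2 and 12.7 CPM in 1014-Ctrl, 1181-Grpr and 1014-Grpr, then at 0.433 in 1064 (4.89, adjusted p = 1.73e-07, edgeR), 0.187 in 1181-Ctrl (1.26, adjusted p = 0.0340) and 0.0513 in 1057 (1.71, adjusted p = 0.0293). Each of these last 3 steps was called. The step from 1181-Ctrl to 1057 rests on 14 and 5 pooled counts, and the libraries of these lines overlapped. The mean of 1057 also lay under the 0.0666 to 0.160 CPM that a library with 0 counts allows. The 1057 line therefore had the lowest mean of Timp2 and of Timp3 among the 6.

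Among the enzymes, Mmp14 stood at 504, 396, 384, 296, 229 and 202 CPM in 1057, 1014-Ctrl, 1014-Grpr, 1181-Grpr, 1181-Ctrl and 1064, with no called step between neighbours. Mmp9 ran from 1.92 ± 1.18 CPM in 1064 to 0.0916 in 1181-Ctrl, also without a called step. Mmp3 lay at 0.787, 0.359, 0.314 and 0.309 CPM in 1014-Grpr, 1057, 1014-Ctrl and 1181-Grpr, a called step above 1064 at 0.0138 (4.14, adjusted p = 0.00488, edgeR), and 1181-Ctrl was at 0. Resting Mmp10 was highest in 1057, at 0.533 CPM, and the next line, 1014-Ctrl, was at 0.0762 (2.71, adjusted p = 0.00211, edgeR). Mmp19 was highest in 1064 at 7.44 CPM and lowest at 0.590.

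Between the transfected partners, no member was called between 1014-Grpr and 1014-Ctrl (0.0846% of genes called). Of the 3 control libraries, 1 was the library that went against its label. Timp1 (4.39 against 8.87 CPM), Timp3 (12.7 against 19.2) and Mmp19 (3.74 against 1.53) did not overlap, and the other members did. These 3 differences did not pass (adjusted p of 0.443 to 0.542, edgeR), and the share of all genes without overlap is not given here. Between 1181-Grpr and 1181-Ctrl, Timp3 was higher in 1181-Grpr by 6.56 ± 0.44 (adjusted p = 3.76e-07, edgeR) and Mmp2 by 3.70 ± 0.32 (adjusted p = 2.13e-06), and Mmp3 was called where the control held no count (6.32% of genes called). This pair also differed in Xist, at 193 to 226 CPM in the mock libraries of 1181-Grpr beside 40.0 to 58.9 CPM of Ddx3y, and at 0.0771 to 0.640 CPM in those of 1181-Ctrl. Resting Timp3 in 1181-Grpr (17.2 CPM) lay near 1014-Grpr (12.7) and 1014-Ctrl (19.2) and far from 1181-Ctrl (0.187). Its Mmp2 (92.9 CPM) likewise lay nearer to 1014-Grpr (68.0) and 1014-Ctrl (67.2) than to 1181-Ctrl (7.23). Neither gene was called between 1181-Grpr and either 1014 line. The part of the Xist difference and of this likeness in the result was not tested.

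To compare genes with each other, the authors' TPM, transcript abundances scaled to both transcript length and library total, were used. The most abundant member at rest was Mmp14 in 1057 (mean of 353 TPM), Mmp2 in 1064 (882 TPM) and Timp2 in the other 4 lines (565 TPM in 1181-Ctrl, 578 in 1014-Ctrl, 616 in 1014-Grpr and 500.4 in 1181-Grpr). The summed TPM of the 3 TIMPs divided by that of the 7 MMPs was 0.0988 ± 0.00621 in 1057 and 0.378 ± 0.125 in 1064 (SD, n = 3), and between 1.45 and 2.68 in the other lines. Transcripts of these 7 enzymes therefore outnumbered those of these 3 inhibitors in both ΔEcad lines and not in the others. Other MMP genes, among them Mmp15 (median of 97.7 CPM over the 72 libraries), and Timp4 were not in these sums. After GRP the ratio in 1057 was 0.180 ± 0.0103, with libraries at 0.172 to 0.192 against 0.0944 to 0.106 in mock, groups that did not overlap. In 1064 it was 0.674 ± 0.310, with libraries at 0.392 to 1.01 against 0.239 to 0.478, groups that overlapped. With GRP, Timp1 in 1064 reached a mean of 529 TPM from 203 in mock. These ratios are descriptions and were not tested.

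**Figure D4:**
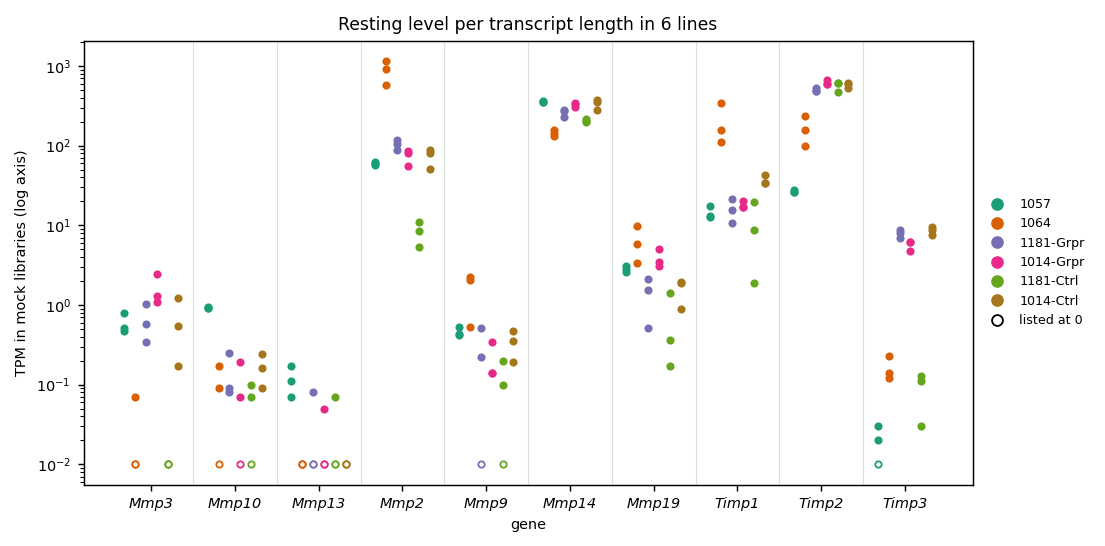
TPM of the 10 genes in the mock libraries of the 6 lines on a log axis, 1 point a library, with open points where a gene was listed at 0. Mmp14 is high in every line, whereas Timp2 and, by its mean, Timp3 are lowest in 1057 and Mmp2 is highest in 1064.

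Of 17 other MMP and TIMP genes, 9 were tested in 1057, where 3 rose and 1 fell after GRP, and no other line gave a call. Of all genes tested in 1057, 4.96% were called higher and 1.5% lower. Mmp12, the macrophage elastase, rose from 0.441 to 1.59 CPM (log2 1.87, adjusted p = 9.59e-07), Mmp1b rose by 1.11 (adjusted p = 0.00431), and the membrane-bound Mmp16 fell from 24.4 to 8.07 CPM (-1.57, adjusted p = 6.14e-10, edgeR). The median change of the tested genes was -0.29, against -0.01 for all genes tested. Mmp12 is best known from macrophages. The levels of leukocyte markers are given above. Among the tested members themselves the median was highest in 1014-Grpr (0.88) and -0.03, 0.19 and 0.15 in 1057, 1064 and 1181-Grpr, with 0.06 (1181-Ctrl) and 0.09 (1014-Ctrl) in the control lines.

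Among 24 ADAM and ADAMTS genes, related proteases of the cell surface and matrix, 3 of 19 tested rose in 1057 (Adamts8 by 1.71, Adamts1 by 1.58 from 497 to 1456 CPM, and Adamts9 by 1.12) and 4 of 17 in 1014-Grpr (Adam19 by 3.05, Adamts1 by 1.69 and Adamts14 by 1.07 among them). None fell, and none was called in the other lines. Of all tested genes, 4.96% were called higher in 1057 and 3.16% in 1014-Grpr. Of 13 activators, binders and further inhibitors, the only call was Pcsk5 in 1014-Grpr, which fell by 1.16 on the log2 scale (adjusted p = 0.0376, edgeR, with 0.852% of genes called lower). Of 13 genes of the AP-1, ETS and RUNX families, whose products bind stromelysin and collagenase promoters, 6 rose in 1057, 4 in 1064 and 7 in 1014-Grpr, and none in 1181-Grpr or the control lines. The shares of all tested genes called higher were 4.96% in 1057, 1.52% in 1064 and 3.16% in 1014-Grpr. Fosl1, a subunit of AP-1, rose by 3.11 in 1057, 2.66 in 1064 and 4.48 in 1014-Grpr. The medians of this list were 0.80, 0.39 and 1.36 in those lines and 0.03 or less in size in the other 3. With RC added to GRP, 6 genes of this list were lower than with GRP alone in 1014-Grpr (1.59% of all tested genes) and 1 in 1057 (0.754%).

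The genes most like each responding member were ranked by Pearson's r over the 24 group means of log2 CPM, each line centred on its own mean, among 16596 genes. Mmp10 ran closest to Spp1, which encodes osteopontin, and to Fndc3b (r = 0.987 for both). Mmp13 ran closest to Ptgs2, the inducible cyclooxygenase (0.956), and Slc16a10 (0.921). Mmp3 was nearest to Capg and Pdia5 (0.932 for both), Timp1 to Clic1 and Slc30a4 (0.931 for both), and Timp3 to Prrg4 (0.935) and Mid2 (0.906). The group means share libraries, lines and depth, and the values are given as a description without a test.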

How the data were processed

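RNA was measured in 72 libraries of 6 mouse melanoma lines (TruSeq Stranded mRNA, paired ends). The authors checked reads with FastQC 0.11.5, aligned them with STAR to GRCm38.p5 (mm10) with the GENCODE annotation, and deposited raw counts per gene. The authors also deposited TPM values per gene, in which the 1057 columns use decimal commas and were converted. Whether the counting used strand is not given in the sources used here, so reads of overlapping genes on opposite strands may be mixed.

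Groups came from the sample titles. Each line was fitted separately (12 libraries, TMM, filterByExpr) with edgeR 4.0.16 and limma 3.58.1 in R 4.3.3, using the quasi-likelihood test with Benjamini-Hochberg adjustment over all tested genes, and errors are standard errors. DESeq2 1.42.0, RLE size factors, no filter, TPM on a log2 scale with a pseudocount of 1 or 0.1, 1 fit of all 72 libraries, the replicate number as a block, leaving out each library in turn and leaving out the 2 libraries that went against their labels were tried as alternatives. CPM were scaled by TMM over the 72 libraries. A count of 0 allows up to 3 counts, or 0.0666 to 0.160 CPM a library, and intervals cover counting error only. Replicates of a group differed by more than sampling noise (chi-square per gene 2.44 to 188 over 72 pairs). Same-numbered GRP and mock libraries deviated together in 1064 (correlations of 0.58 to 0.72), 1181-Grpr (0.50 to 0.74), 1014-Grpr (0.43 to 0.51), 1181-Ctrl (0.75 to 0.85) and 1014-Ctrl (0.12 to 0.28) and not in 1057 (0.00758 to 0.0483), so the numbers were read as pairing all lines but 1057 for this comparison. For GRP+RC they did not pair 1181-Grpr, where the lowest correlation with GRP was 0.00197.

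The members, the lists of other genes and the libraries left out were chosen with earlier results of these data known. Of each list of other genes, up to 3 called genes with the largest change in a line were named, and of the genes most like a responding member the first 2. Counts and intervals were computed with Python 3.11.15, pandas 2.3.3 and scipy 1.17.1, and the tests were tried on simulated data. Promoter sequences are RefSeq's (7 of 10 members matched), and gene positions are from a GENCODE annotation of GRCm38.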

Additional observations from a re-analysis of the deposited data

Results flagged for a closer look

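The response to GRP differed between groups of libraries, by a test of the difference itself, for 5 members. With the receptor the log2 response of Timp1 was larger by 1.50 than in the control lines on average (adjusted p = 0.0365, edgeR), and by 1.35 within the 1014 pair (adjusted p = 0.00765). Within that pair the response was also larger for Timp3, by 1.20 (adjusted p = 0.00163, edgeR), and for Mmp10, by 4.03 (adjusted p = 0.0166). Mmp10 was above the minimum count in this pair only in the 3 GRP libraries of 1014-Grpr, so it could be tested only because it was high there. Between lines that express GRPR, 1057 exceeded 1181-Grpr by 2.36 for Mmp3 (adjusted p = 0.0314, edgeR) and by 4.74 for Mmp10 (adjusted p = 0.00583). The response of Mmp19 differed by -1.50 between 1057 and 1014-Grpr (adjusted p = 0.000871, edgeR), with 3.69, 3.0 and 3.31 CPM against 2.12, 2.24 and 1.86 in 1057 and 3.01, 4.93 and 3.26 against 4.94, 7.84 and 7.03 in 1014-Grpr. That of Timp3 differed by -1.28 between 1181-Grpr and 1014-Grpr (adjusted p = 0.0413, edgeR). Grpr itself differed between these lines, at 187 to 275 CPM in 1057, 8.48 to 79.9 in 11 libraries of 1181-Grpr and 107 to 620 in 1014-Grpr, and its part in the differences was not tested.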

How the results depend on the processing

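No result changed direction under the alternatives run. Members called after GRP against mock numbered 7, and 11 by the adjusted p alone, with 7 to 9 when 1 library was left out. After RC against mock there was 1, with 2 by the adjusted p alone, 0 with TPM and a pseudocount of 1, 0 in 1 fit of 72 libraries, and 0 to 1 when 1 library was left out (0 without 1057 RC replicate 1). For GRP+RC against GRP there were 3, with 9 by the adjusted p alone, 6 with the replicate block, 1 with TPM and a pseudocount of 1, and 3 to 5 when 1 library was left out (5 without 1014-Grpr GRP replicate 1 or GRP+RC replicate 3). For GRP+RC against mock there were 3, with 5 by the adjusted p alone and 1 in 1 fit of 72 libraries. Differences between GRPR-expressing lines numbered 4, and 9 with the block. The cause of these changes was not tested.

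Single calls depended on a setting for Mmp13 in 1057, which was lost with TPM and a pseudocount of 1 (0.38) and in 1 fit of 72 libraries (adjusted p = 0.0573, edgeR), and for Timp1 in 1014-Grpr, lost in that fit (adjusted p = 0.163). Mmp9 in 1057 was called lower without GRP replicate 1 (-1.02, adjusted p = 0.0307, edgeR), and Mmp19 in 1014-Grpr higher without GRP replicate 1 (1.00) or mock replicate 2 (1.09). In GRP+RC against GRP, Mmp10 in 1057 was lost in 1 fit of 72 libraries (adjusted p = 0.605, edgeR), Mmp10 in 1014-Grpr in that fit (adjusted p = 0.0778) and with TPM, and Mmp13 in 1057 in both and by DESeq2, which gave it no adjusted p. Beyond the pairs named here and in the report the replicate block changed no call of a member after GRP, and resting calls were 62 with it against 61. Over all alternatives the adjusted p in GRP against mock ran from 0.000204 to 0.249 for Timp1 in 1064, from 3.48e-05 to 0.226 for Mmp10 in 1064, from 6.18e-05 to 1 for Timp1 in 1181-Grpr and from 0.00149 to 0.0573 for Mmp13 in 1057 (edgeR, limma or DESeq2). Depth limits Mmp13 most, with 0 counts in 44 of 72 libraries.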
